A study of Mus musculus with 9 samples.

Results

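The genes described here encode the voltage-gated sodium channels (Scn), the voltage-gated calcium channels (Cacna1, Cacna2d and Cacnb) and the hyperpolarization-activated cation channels (Hcn). They were chosen by their symbols alone and comprise 10 Scn alpha subunits, 4 Scn beta subunits, 10 Cacna1, 4 Cacna2d, 4 Cacnb and 4 Hcn genes, which makes 36 of the 33964 annotated genes in the data. Each gene was represented by its transcript with the highest mean count over all samples. RNA was measured in 9 samples of mouse piriform cortex, the primary olfactory cortex, with 3 samples from each of layers A, B and C. All samples came from wild-type C57BL/6 mice with no treatment named, aged 8 weeks by the labels and somewhat older by the study's methods. Tissue was cut from frozen coronal sections by laser capture, where a beam excises an area chosen under the microscope, and the RNA was amplified before sequencing. The letters have no key to the anatomical layers I, II and III and are used as given. How many mice gave the samples is not stated, so the tests measure the spread between these samples, which may be technical.

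Voltage-gated sodium channels open on depolarization and carry the rising phase of the action potential. Their alpha subunit forms the pore, and the beta subunits are small membrane proteins that alter gating and adhesion. In calcium channels a Cacna1 subunit forms the pore, while Cacna2d and Cacnb subunits bring it to the membrane and tune its gating. Calcium that enters through them triggers transmitter release, dendritic spikes and gene transcription. HCN channels open on hyperpolarization, are tuned by cyclic AMP and shape the resting potential and the integration of synaptic inputs in the dendrites of pyramidal neurons.

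Before the results, the libraries themselves were compared. Total counts ranged from 23104306 to 76471683 per sample, and the 2 mitochondrial ribosomal RNAs took between 55.3 and 70.2% of them for layer A, between 12.8 and 28.1% for layer B and between 20.5 and 57.1% for layer C. The share of 57.1% belonged to layer C replicate 2, which lay within the range of layer A. Layer B replicate 3 stood apart from the other samples of layer B by its higher sums of interneuron, oligodendrocyte and astrocyte markers. Levels are given as normalized CPM, counts relative to library size after TMM scaling, a method that assumes that most transcripts do not differ. A count of 3, taken as the floor of detection, corresponded to 0.0256 to 0.254 normalized CPM. Reads carried no molecular identifiers, so floors and intervals cover counting error only.

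Promoter sequence is shown for the members whose levels differed most among the layers and for a pair that were not lower in layer A, so that the regions upstream of both kinds can be read side by side. RefSeq promoter windows on GRCm38 matched 26 of the 36 genes. The windows printed cover the 250 bases before the RefSeq start, in genes whose start lay within 100 bases of that of the member transcript and where the window overlapped no annotated exon. The first 4 belong to the members with the smallest p among the 3 layers that met these conditions, and the last pair to Cacnb3 and Hcn2. Capitals mark a CCAAT box (CCAAT, on either strand) or a GC box (GGGCGG, on either strand).
Scn2a, chr2:65620519-65620768, plus strand: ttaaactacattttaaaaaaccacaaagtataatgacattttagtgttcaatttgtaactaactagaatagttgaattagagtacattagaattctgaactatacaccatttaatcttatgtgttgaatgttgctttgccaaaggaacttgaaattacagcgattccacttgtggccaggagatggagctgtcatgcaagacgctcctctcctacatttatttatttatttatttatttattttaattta
Cacnb4, chr2:52558612-52558861, minus strand: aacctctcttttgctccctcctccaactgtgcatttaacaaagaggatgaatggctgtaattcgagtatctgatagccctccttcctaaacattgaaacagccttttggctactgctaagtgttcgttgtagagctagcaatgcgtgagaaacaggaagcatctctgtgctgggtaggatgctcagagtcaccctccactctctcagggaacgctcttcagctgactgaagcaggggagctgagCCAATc
Scn8a, chr15:100870395-100870644, plus strand: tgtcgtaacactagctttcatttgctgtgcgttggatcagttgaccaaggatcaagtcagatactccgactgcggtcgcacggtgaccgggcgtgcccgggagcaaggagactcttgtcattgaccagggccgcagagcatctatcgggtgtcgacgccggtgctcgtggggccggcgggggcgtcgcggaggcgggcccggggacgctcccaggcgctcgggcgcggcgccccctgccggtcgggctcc
Cacna1b, chr2:24763153-24763402, minus strand: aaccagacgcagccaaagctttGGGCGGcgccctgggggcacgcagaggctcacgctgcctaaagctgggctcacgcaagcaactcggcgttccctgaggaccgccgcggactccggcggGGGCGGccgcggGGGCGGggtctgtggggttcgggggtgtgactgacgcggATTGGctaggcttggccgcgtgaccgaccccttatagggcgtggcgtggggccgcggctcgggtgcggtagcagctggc
Cacnb3, chr15:98632078-98632327, plus strand: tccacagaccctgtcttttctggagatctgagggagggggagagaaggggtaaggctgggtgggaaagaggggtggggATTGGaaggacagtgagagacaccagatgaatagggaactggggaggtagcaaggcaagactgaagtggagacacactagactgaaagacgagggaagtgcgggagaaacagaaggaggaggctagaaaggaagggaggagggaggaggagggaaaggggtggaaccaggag
Hcn2, chr10:79716384-79716633, plus strand: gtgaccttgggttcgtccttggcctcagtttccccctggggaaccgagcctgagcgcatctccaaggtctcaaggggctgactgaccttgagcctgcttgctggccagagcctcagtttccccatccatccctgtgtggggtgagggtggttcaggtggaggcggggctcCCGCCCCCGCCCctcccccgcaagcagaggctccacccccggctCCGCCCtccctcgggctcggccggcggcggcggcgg

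These windows differed widely in composition. GC content was 29.6% for Scn2a, 48.8% for Cacnb4, 68.0% for Scn8a and 72.0% for Cacna1b, against 56.0% for Cacnb3, 70.4% for Hcn2 and a median of 52.4% over 32851 RefSeq promoters of the same length. The Scn8a and Cacna1b windows held 30 and 29 CpG dinucleotides, while Scn2a and Cacnb3 held 2 each and the median promoter held 6. A GC box was found upstream of Cacna1b and Hcn2, and a CCAAT box upstream of Cacna1b, Cacnb4 and Cacnb3. Over the 26 members with a window, a GC box was present in 13 (50%) against 32.7% of all promoters, and a CCAAT box in 6 (23.1%) against 33.8%. These counts use all 26 windows, of which 11 met the conditions on start and exons set for the printed ones. A TATA box (TATAAA) and a cyclic AMP response element (TGACGTCA) were searched on both strands as well and occurred in 0 of the 26 windows, whereas 12.4% and 1.5% of all promoters hold them. GC-rich windows occurred both among members lower in layer A and among members that were not.

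Channel genes that passed in a comparison with layer A were in each case lower there. No member passed between layers B and C, where 0 of 56416 transcripts passed. Between layers A and B, 15 of 34 tested members (44.1%) passed an edgeR quasi-likelihood test at an adjusted p of 0.05, all of them lower in layer A. Over all 56416 transcripts tested, 16.5% passed in either direction, 5.83% lower and 10.7% higher in layer A. Between layers A and C, 15 of 34 members again passed, all lower in layer A, while 11.3% of all transcripts passed, 4.35% lower and 6.98% higher. With 1 transcript per gene, 9.47% and 7.2% of 15174 genes were lower in layer A in the 2 comparisons. Among the 3 layers jointly 14 of 34 members passed, against 14.3% of all transcripts. Every layer A sample lay below every layer B sample for 20 members (15.1% of all transcripts) and below every layer C sample for 24 (14.5% of all transcripts). Layer A samples lay above every layer C sample for 0 members (17.0% of all transcripts). Scn4a and Scn11a had too few counts to be tested.

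**Figure D1:**
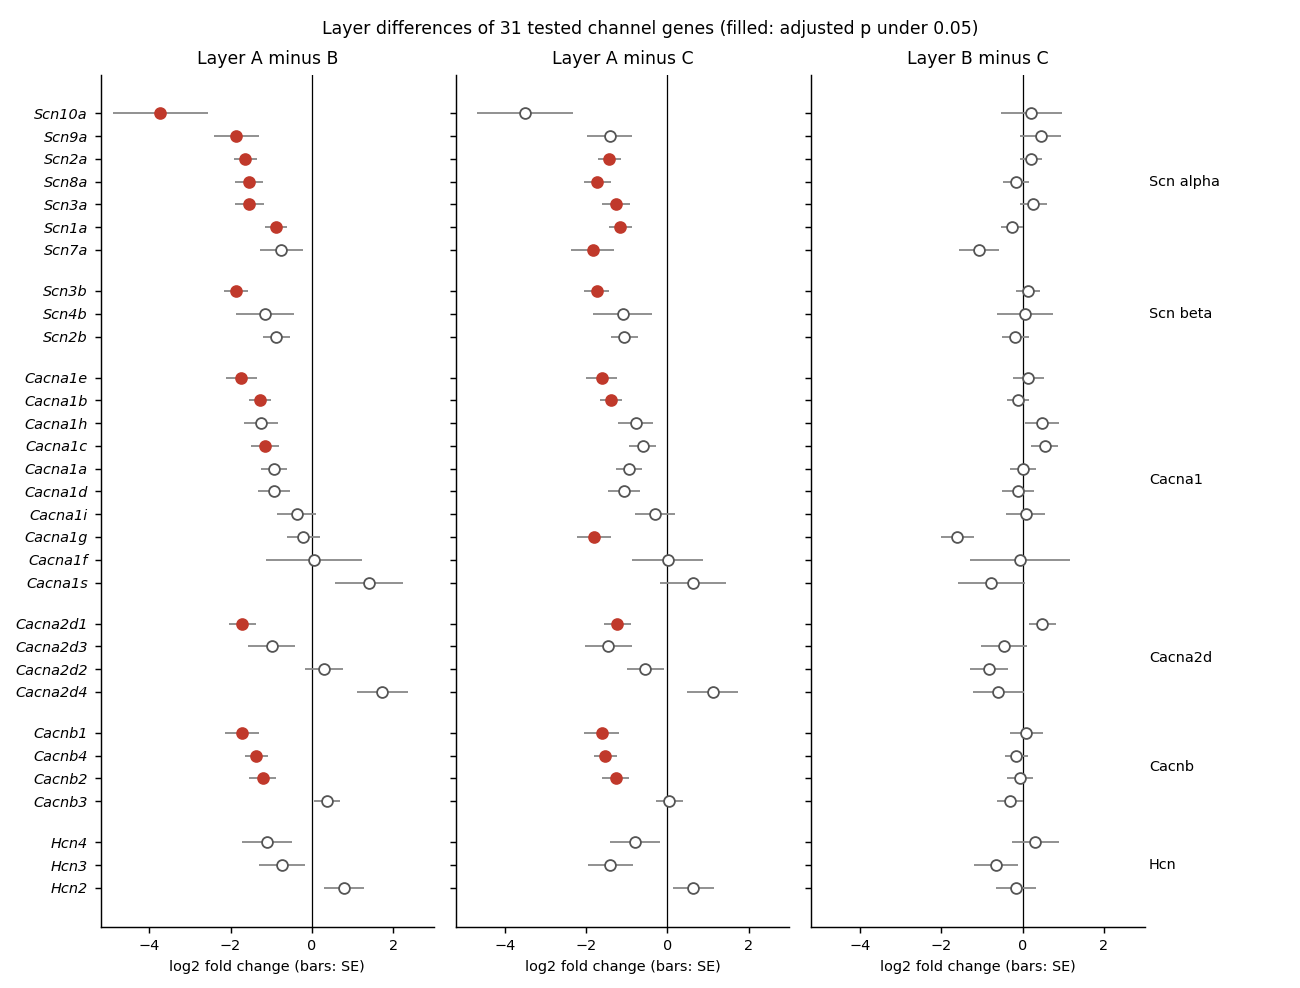
Log2 fold change of 31 of the tested channel genes between layers A and B, A and C, and B and C (x axis), with bars of 1 standard error and genes grouped by family. Filled points passed the edgeR test at an adjusted p of 0.05, 14 of these between A and B and 13 between A and C, all left of 0, and 0 between B and C.

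The median log2 fold change of the 34 tested members was -1.05 between layers A and B and -1.25 between layers A and C, where the medians of all transcripts were -0.12 and -0.01. Passed or not, 28 members had a negative fold change between A and B and 29 between A and C. Both comparisons share the layer A samples. A total of 12 members passed in both, 3 between A and B alone (Cacna1c, Scn9a and Scn10a) and 3 between A and C alone (Cacna1g and Scn7a among them). Summed over the 36 members, the level lay between 426.5 and 543.9 normalized CPM for layer A, between 1208 and 1322 for layer B and between 988.8 and 1510 for layer C. In bulk tissue, fewer cells that express a channel and less RNA of it per cell cannot be told apart.

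Single samples moved these counts, for the members and over all transcripts. Without layer A replicate 1 or without layer A replicate 2, 9 members passed between layers A and B, and without layer B replicate 3, 18 passed, 1 of them (Cacna2d4) higher in layer A. Over all transcripts, 5570 of 56174, 6333 of 56009 and 11337 of 55684 passed in these fits, against 9329 of 56416 with all samples. Between layers A and C, 7 passed without layer A replicate 1 or without layer C replicate 1, 9 without layer C replicate 2 and 19 without layer B replicate 3. In the same order, 2727 of 56174, 1369 of 55950, 3785 of 56302 and 9740 of 55684 transcripts passed. With all samples 6389 of 56416 did. Members that passed with every single sample left out included Scn2a, Scn8a, Scn3b, Cacna1b and Cacnb4 in both comparisons, and also Scn3a, Cacna1e and Cacna2d1 between A and B.

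Markers of other cells moved with the same split of layers. All 12 astrocyte markers passed upwards in A against both B and C, with summed levels of 5282 to 10804 normalized CPM in A, 731.3 to 1279 in B and 1297 to 1802 in C. The 10 meningeal fibroblast markers were all higher too, at 76.8 to 188.4, 1.62 to 9.08 and 4.98 to 7.07. Endothelial markers (9 and 8 of 10 higher in A than in B and C; 121.3 to 148.1, 8.85 to 23.2 and 17.3 to 28.9), pericyte and smooth muscle markers (9 and 9 of 10; 241.4 to 396.4, 17.7 to 61.2 and 47.8 to 68.9), microglial markers (8 and 7 of 10; 155.8 to 196.0, 24.6 to 65.6 and 55.7 to 76.7) and oligodendrocyte precursor markers (8 and 3 of 8; 168.3 to 194.5, 25.7 to 42.7 and 53.9 to 76.8) also passed upwards in A. Oligodendrocyte markers (2 of 10 higher in A than in B, 0 of 10 passing between A and C; 179.4 to 280.1, 46.7 to 227.9 and 140.7 to 507.7) and peripheral glia markers (4 and 2 of 5 tested higher in A; 113.2 to 175.2, 19.4 to 130.2 and 68.0 to 208.2) overlapped between layers. Of 10 glutamatergic neuron markers, 5 were lower and 1 higher in A than in B, and 6 lower and 1 higher in A than in C, the higher one being Camk2a. All 10 summed to 2469.9 to 4312.7 normalized CPM in A, 1686.1 to 1723.4 in B and 1492.3 to 2215.9 in C, highest in A. Camk2a was left out of a second sum after its values were seen. The other 9 summed to 181.5 to 353.1 normalized CPM in A, 804.3 to 981.2 in B and 727.5 to 891.1 in C. The median log2 fold change of all 10 was -1.36 and -1.39. GABAergic interneuron markers passed in both directions (0 lower and 2 higher of 10 between A and B, 2 lower and 1 higher between A and C; 211.9 to 382.5, 62.0 to 311.6 and 193.3 to 324.8). No marker of these lists was at 0 in all samples. Of all transcripts, 10.7% passed higher and 5.83% lower in A than in B, and 6.98% and 4.35% against C. With counts thinned to 1 depth, 11 members passed between A and B and 15 between A and C, and with mitochondrial transcripts left out of the counts 14 and 15 passed. Over all transcripts these fits called 8378 and 6193 of 44959, and 9297 and 6453 of 56390. The part of tissue make-up in the channel differences was not tested.

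**Figure D2:**
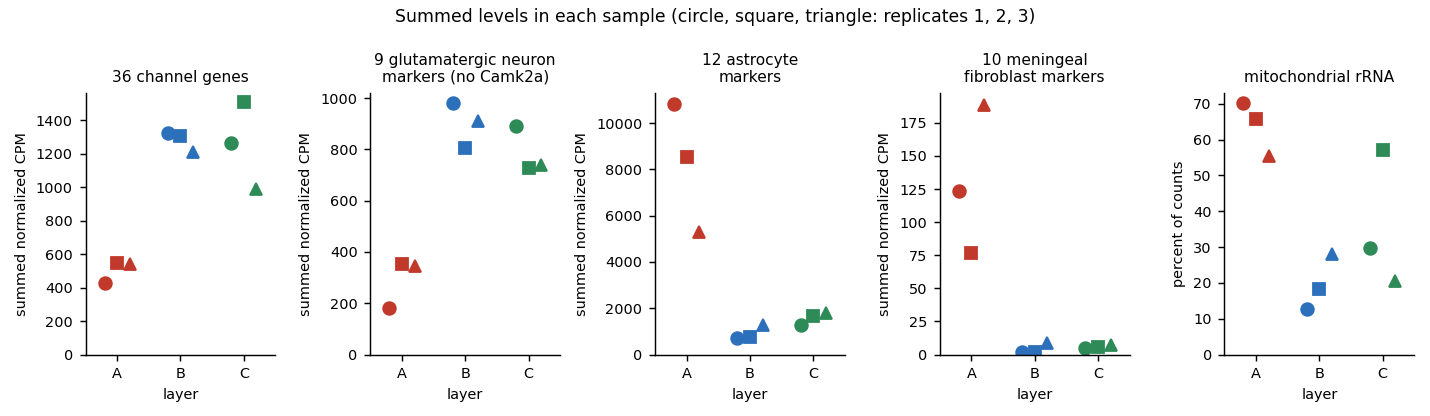
Summed normalized CPM of the 36 channel genes and of 3 marker lists, and the percent of counts from mitochondrial ribosomal RNA, in each of the 9 samples by layer (circle, square and triangle are replicates 1, 2 and 3). The channel sum of layer A (426.5 to 543.9) lies below that of layers B and C, as does that of 9 glutamatergic markers, while astrocyte and fibroblast sums are highest in layer A. Camk2a was left out of the neuron sum after its values were seen.

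Sodium channel alpha subunits were lower in layer A almost throughout. All 8 tested members had a negative fold change, and 7 passed between A and B and 6 between A and C. Over all transcripts, 5.83% and 4.35% passed lower in layer A. Every layer A sample lay below every layer C sample for all 8, which held for 14.5% of all transcripts. Their median log2 fold change was -1.60 between A and B and -1.57 between A and C. Per kilobase of transcript, Scn2a (mean level 15.2 normalized CPM per kb over 9 samples) and Scn8a (12.3) stood above Scn1a (2.60) and Scn3a (2.21).

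Scn2a (ENSMUST00000028377, GRCm38 chromosome 2 from 65620771 to 65767447, plus strand) encodes an alpha subunit of the axon initial segment and of unmyelinated axons of excitatory neurons. Its level was 49.9, 73.3 and 56.2 normalized CPM in the samples of layer A, 203.5, 195.6 and 160.3 in layer B and 167.2, 180.6 and 134.4 in layer C. No layer A sample reached the lowest sample of another layer. The log2 fold change was -1.64 ± 0.28 (SE throughout, edgeR adjusted p = 0.00126) between A and B and -1.43 ± 0.278 (edgeR adjusted p = 0.00602) between A and C.

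Scn8a (ENSMUST00000082209, chromosome 15 from 100870683 to 101045929, plus strand), the main alpha subunit of mature axon initial segments and nodes of Ranvier, measured 44.5, 54.8 and 73.8 normalized CPM in layer A, 143.9, 145.1 and 218.5 in layer B and 169.3, 267.7 and 134.5 in layer C. Layer C replicate 2 was the highest of all samples, and layer A was separate from both other layers. On the log2 scale layer A differed by -1.55 ± 0.333 (edgeR adjusted p = 0.00521) from B and by -1.72 ± 0.334 (edgeR adjusted p = 0.00592) from C.

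Scn1a, the alpha subunit best known from fast-spiking interneurons and inherited epilepsy, was at 11.1, 14.7 and 12.9 normalized CPM in layer A, 26.3, 23.6 and 21.8 in layer B and 25.7, 29.9 and 30.6 in layer C. Replicates lay close together and layer A was again apart. The difference from B was -0.89 ± 0.276 (edgeR adjusted p = 0.0383), and that from C was -1.16 ± 0.278 (edgeR adjusted p = 0.0157). Between A and B the call was lost in 12 of 20 alternative fits, with adjusted p from 0.0141 to 0.175 over all of them. Between A and C it was lost without layer A replicate 1 and without layer C replicate 1, with edgeR adjusted p up to 0.0633.

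Scn3a, known for its high level in the developing brain, was at 9.06, 10.2 and 10.7 normalized CPM in layer A, 31.4, 29.1 and 26.7 in layer B and 20.1, 38.2 and 14.8 in layer C. Samples of layers A and B were tight and those of layer C were spread. Between A and B the fold change was -1.54 ± 0.349 (edgeR adjusted p = 0.00716), and between A and C it was -1.27 ± 0.347 (edgeR adjusted p = 0.0275). The latter ran from -1.52 to -0.80 with single samples left out, and its call was lost in 5 of these 9 fits (without any 1 of the layer A samples, without layer C replicate 1 and without layer C replicate 2).

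Scn2a and Scn3a are neighbours and share stretches of sequence, which bears on how reads were assigned. Of the 50-base stretches of the Scn2a member transcript, 7.87% also occur in other genes, and of Scn3a 8.53%. Scn1a (5.48%) shares stretches mostly with Scn2a, and Scn9a (5.54%) mostly with Scn3a. How the authors' counting treated such reads is not given in the sources used here.

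The remaining alpha subunits are known mainly from other tissues, peripheral nerve and glia and were present at low levels. Scn9a, an alpha subunit of nociceptors and of some central neurons, was at 0.169, 0.468 and 0.449 normalized CPM in layer A, 1.10, 1.87 and 1.17 in layer B and 1.30, 0.893 and 0.843 in layer C. Layer A was below both other layers, by -1.86 ± 0.552 (edgeR adjusted p = 0.0306) against B, while the value against C, -1.42 ± 0.554, did not pass (edgeR adjusted p = 0.12). The call against B was lost in 8 of 19 alternative fits, among them those without any 1 of the layer A samples, without layer B replicate 1, without layer B replicate 2 and without layer C replicate 1, with edgeR or DESeq2 adjusted p up to 0.128. Scn7a, a sodium-sensing member that is not gated by voltage like its relatives, was at 0.423, 1.14 and 0.598 in layer A, 1.19, 0.647 and 1.81 in layer B and 2.58, 3.13 and 2.05 in layer C. Layer C was above both other layers without overlap, and the test passed between A and C (-1.84 ± 0.534, edgeR adjusted p = 0.0374). That call was lost in 6 of 9 fits with a single sample left out (layer A replicates 1 and 3, layer B replicate 1 and each layer C sample), with edgeR adjusted p up to 0.134.

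Scn10a, a nociceptor channel, rested on few reads. It had 0, 0 and 1 counts in layer A, 10, 13 and 7 in layer B and 7, 4 and 20 in layer C. The single count against 30 gives a ratio of A to B of 0.0679 with an exact 95% interval from 0.00166 to 0.408, and against the 31 counts of layer C a ratio of 0.0839 (0.00206 to 0.503). The edgeR test passed between A and B (adjusted p = 0.0381) and not between A and C (adjusted p = 0.0683), and the first call was lost in 8 of 15 alternative fits. Scn11a had 0, 0 and 2 counts in layer A, 0, 3 and 0 in layer B and 3, 6 and 13 in layer C, and Scn4a, the skeletal muscle alpha subunit, had a single count, in layer A replicate 3. Skeletal muscle markers were sparse too, with 4 of 10 tested, 0 passing in any pair of layers, Tnnt3 at 0 in every sample and summed levels of 3.73 to 5.79, 4.18 to 7.93 and 4.64 to 8.25 normalized CPM in A, B and C.

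Several alpha subunits are clustered in the genome. Scn1a, Scn2a, Scn3a, Scn7a and Scn9a lie on chromosome 2 between 65457118 and 66784914, and all 5 passed in at least 1 comparison with layer A. Of all transcripts, 5.83% passed lower in A than in B and 4.35% lower than in C. Scn8a lies apart from the chromosome 2 genes, on chromosome 15, and passed in both comparisons.

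**Figure D3:**
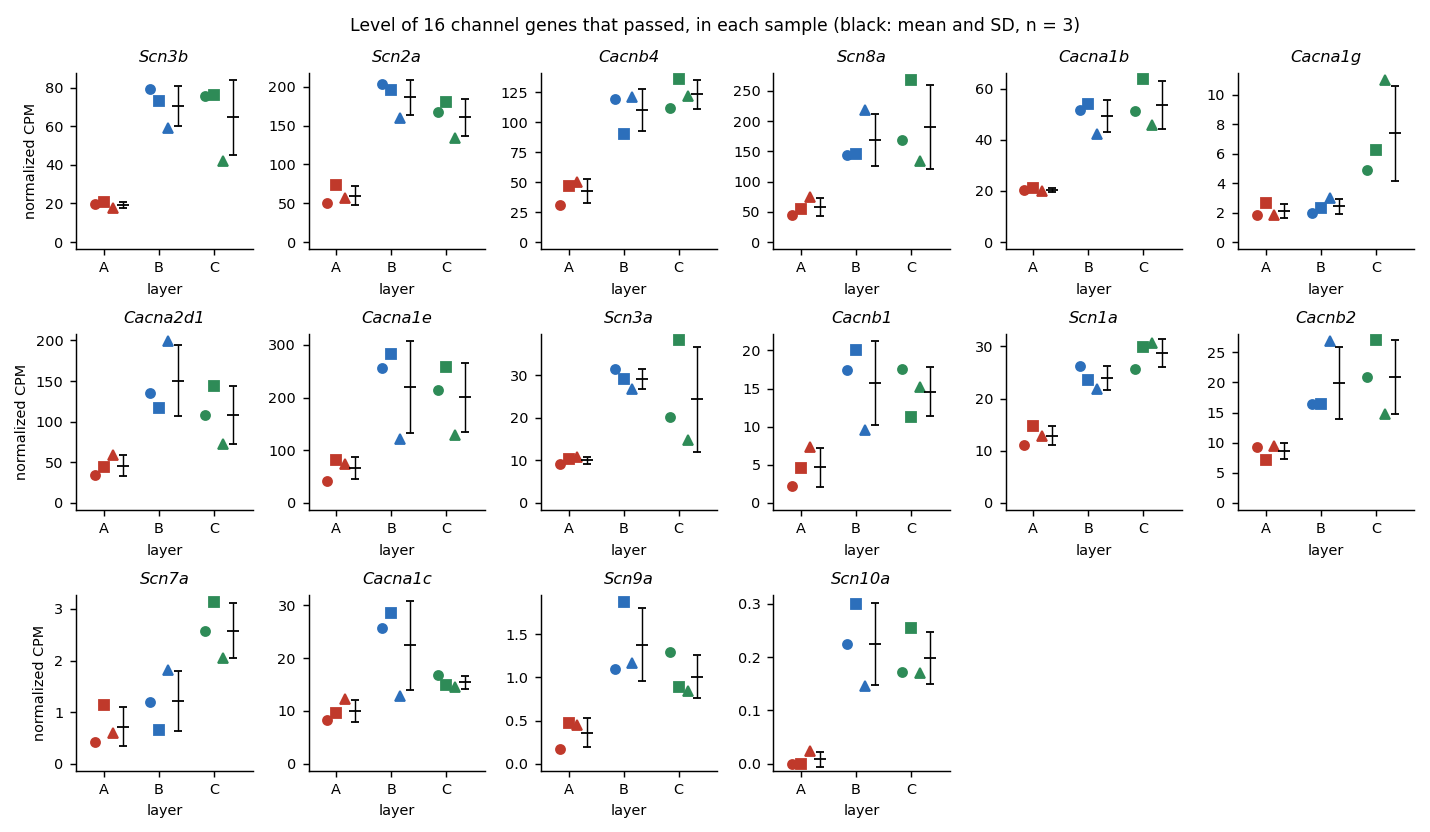
Normalized CPM (y axis, including 0, a scale of its own for each gene) in each sample of layers A, B and C for 16 of the channel genes that passed in at least 1 comparison, in order of p among the 3 layers, with the mean and SD of 3 samples in black (circle, square and triangle are replicates 1, 2 and 3). Layer A is lowest in mean for all 16, and in Cacna1g and Scn7a every layer C sample lies above every layer B sample.

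Among the beta subunits, Scn3b differed most clearly between layer A and the other layers. It encodes a non-covalently bound beta subunit and had the smallest p of all members, in both comparisons with layer A and among the 3 layers. Scn3b (ENSMUST00000171835, chromosome 9 from 40269433 to 40291618, plus strand) was at 19.6, 20.7 and 17.5 normalized CPM in layer A, 79.3, 73.1 and 59.2 in layer B and 75.9, 76.0 and 41.9 in layer C. Its highest layer A sample was below every other sample. The fold change of -1.87 ± 0.306 against B (edgeR adjusted p = 0.000972) and -1.74 ± 0.305 against C (edgeR adjusted p = 0.00362) passed in all 20 alternative fits of each comparison. Scn2b and Scn4b had fold changes of -0.88 and -1.16 between A and B and of -1.06 and -1.10 between A and C, and neither passed in edgeR, while Scn2b passed against C in DESeq2 (-1.04, adjusted p = 0.0399). For Scn2b, which links covalently to the alpha subunit, the samples of layer A (25.6, 33.7 and 14 normalized CPM) lay below those of layer B (52.2, 45.8 and 36.7) and layer C (62.5, 49.3 and 40.7), at an edgeR adjusted p of 0.0901 and 0.0557. Another Scn2b transcript, ENSMUST00000093855, passed against C in edgeR (-1.14, adjusted p = 0.035) and not against B (-0.94, adjusted p = 0.0625). Scn4b was low and scattered, from 0.339 to 4.52 normalized CPM over the 9 samples.

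The make-up of a family can be read from shares. As a percent of the summed level per kilobase of the 4 beta subunits, Scn3b made up 31.0, 24.3 and 31.6% in layer A, 47.5, 47.2 and 39.7% in layer B and 43.4, 49.2 and 34.7% in layer C, without overlap between A and the others. Among alpha subunits the shares of Scn2a (45.7% ± 5.53 (SD, n = 3) in A, 48.9% ± 6.67 in B, 43.3% ± 4.66 in C) and Scn8a (34.8% ± 5.88, 35.0% ± 8.23 and 39.3% ± 4.58) overlapped between all layers. Shares were computed after the levels were seen and are descriptions, since 3 samples against 3 cannot give an exact permutation p below 0.1.

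**Figure D4:**
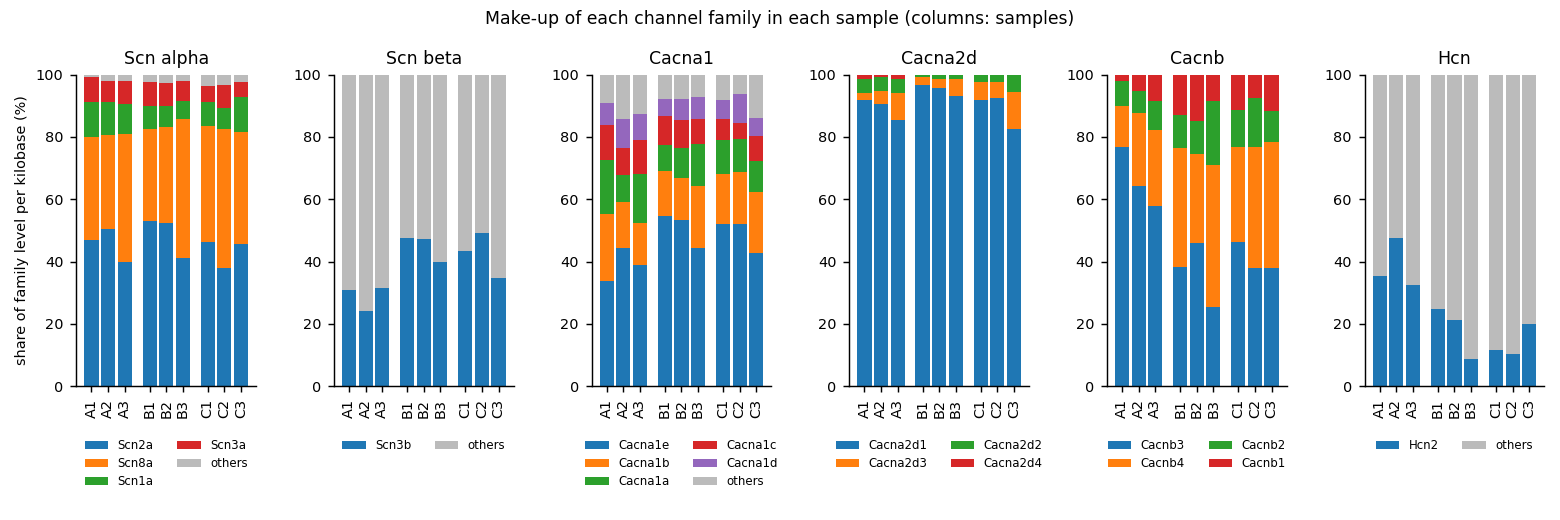
Share of genes in the summed level per kilobase of their family (y axis, percent) in each of the 9 samples (columns A1 to C3), with a panel for each family and its remaining genes summed in grey. In layer A, Scn3b takes a smaller share of the beta subunits, Cacnb3 a larger share of the Cacnb genes and Hcn2 a larger share of the Hcn genes than in every sample of the other layers, while the shares of Scn2a and Scn8a overlap between layers.

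Of the 10 pore-forming calcium channel genes, 3 passed between A and B (Cacna1b, Cacna1c and Cacna1e) and 3 between A and C (Cacna1b, Cacna1e and Cacna1g), all lower in layer A. The shares of all transcripts that passed lower in A were 5.83% and 4.35%. Cacna1e, which encodes the R-type channel, had the highest level per length of the family (12.8 normalized CPM per kb over 9 samples). Its samples were at 42.0, 81.7 and 73.9 normalized CPM in layer A, 256.5, 283.5 and 121.4 in layer B and 214.5, 258.0 and 129.7 in layer C. Layer A was apart from both, although replicate 3 was the lowest sample of B and of C. The log2 values were -1.74 ± 0.383 (edgeR adjusted p = 0.00597) and -1.61 ± 0.381 (edgeR adjusted p = 0.0148), the latter lost without layer A replicate 1, without layer C replicate 1 and without layer C replicate 2.

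Cacna1b (ENSMUST00000102939, chromosome 2 from 24603894 to 24763129, minus strand) encodes the N-type channel of presynaptic terminals. It was at 20.4, 21.2 and 19.8 normalized CPM in layer A, 51.7, 54.0 and 42.1 in layer B and 51.4, 63.8 and 45.7 in layer C. The 3 layer A samples were nearly equal and below every other sample. Differences of -1.27 ± 0.272 (edgeR adjusted p = 0.00527) from B and -1.39 ± 0.273 (edgeR adjusted p = 0.0062) from C passed in all 20 alternative fits of each comparison.

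Cacna1c, the main L-type channel of brain and heart, was at 8.30, 9.55 and 12.3 normalized CPM in layer A, 25.7, 28.6 and 12.8 in layer B and 16.8, 14.9 and 14.5 in layer C. Layer B replicate 3 lay just above the highest layer A sample. The test passed between A and B (-1.15 ± 0.34, edgeR adjusted p = 0.0301) and was lost in 8 of 20 alternative fits, while the value between A and C was -0.61 ± 0.338 (edgeR adjusted p = 0.292).

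Cacna1g, a low-threshold T-type channel, followed another pattern. Its samples were at 1.86, 2.67 and 1.82 normalized CPM in layer A, 2.00, 2.31 and 3.00 in layer B and 4.91, 6.25 and 11 in layer C. Layers A and B overlapped, and every layer C sample was above both. It passed between A and C (-1.81 ± 0.416, edgeR adjusted p = 0.0127), a call lost without layer A replicate 1 and without layer C replicate 3, and did not pass between A and B (-0.21 ± 0.41, edgeR adjusted p = 0.791). Between B and C the log2 value was -1.61 ± 0.404, at an edgeR adjusted p of 0.541.

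The other 6 pore-forming genes did not pass in any edgeR comparison of all samples. In DESeq2, Cacna1a passed against B (-0.92, adjusted p = 0.0442) and C (-0.93, adjusted p = 0.0492), and Cacna1h against B (-1.23, adjusted p = 0.0285). Cacna1a, the P/Q-type channel of synaptic terminals, was at 13.3, 10 and 18.5 normalized CPM in layer A, 25.0, 32.1 and 23.3 in layer B and 28, 33.5 and 19.2 in layer C, so that layer A lay below both without overlap at an edgeR adjusted p of 0.0619 and 0.0778. Cacna1d, the second neuronal L-type channel, also separated layer A from both (8.84 ± 2.76 normalized CPM (SD, n = 3) in A, 17.1 ± 5.07 in B and 18.7 ± 9.46 in C) and did not pass. Its margin to layer C was minimal, since layer A replicate 2 and layer C replicate 3 both rounded to 10.7. Cacna1h and Cacna1i, both T-type channels, had fold changes of -1.25 ± 0.424 and -0.38 ± 0.485 between A and B and overlapped between all layers. Cacna1f, the retinal L-type channel, ranged from 0 to 0.702 normalized CPM.

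Cacna1s, the skeletal muscle L-type channel, is listed by the study among candidate genes of a layer. Its member transcript was at 0.254, 0.20 and 0.574 normalized CPM in layer A, 0.0674, 0.0462 and 0.291 in layer B and 0.221, 0.191 and 0.273 in layer C. The layers overlapped, and the fold change of 1.40 ± 0.836 between A and B did not pass (edgeR adjusted p = 0.296). The listed transcript, ENSMUST00000161865, had 2, 2 and 23 counts in layer A, 3, 1 and 14 in layer B and 7, 3 and 30 in layer C, with adjusted p of 0.384 and 0.754 in the edgeR comparisons with B and C. Of the 50-base stretches of the member transcript, 16.43% also lie in the overlapping gene Gm37759, and the libraries do not record strand.

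Among the Cacna2d genes, Cacna2d1 made up most of the family and was the 1 member of 4 that passed. It encodes an auxiliary subunit that binds gabapentin and brings calcium channels to the membrane. Cacna2d1 (ENSMUST00000101581, chromosome 5 from 15934788 to 16371051, plus strand) was at 34.1, 44.8 and 59.2 normalized CPM in layer A, 135.9, 116.4 and 199.5 in layer B and 108.8, 144.1 and 72.3 in layer C. Layer A was below both, most clearly below B. Its level per length, 26.2 normalized CPM per kb, was the highest of the 36 genes, and the log2 fold change was -1.71 ± 0.34 against B (edgeR adjusted p = 0.0033) and -1.23 ± 0.336 against C (edgeR adjusted p = 0.0276). Against C the call was lost without layer A replicate 1, without layer A replicate 2, without layer C replicate 1 and without layer C replicate 2.

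Cacna2d2, Cacna2d3 and Cacna2d4 were low, at mean levels of 0.659, 1.51 and 0.0955 normalized CPM per kb, and did not pass in edgeR with all samples. Cacna2d3 passed without layer A replicate 3 in both comparisons, and against layer C also without layer B replicate 3. Cacna2d4 was the member with the highest fold change in layer A, at 0.847, 0.534 and 1.40 normalized CPM in A, 0.202, 0.254 and 0.395 in B and 0.442, 0.638 and 0.281 in C. The lowest sample of A exceeded the highest of B, as for 2 of 34 members (17.2% of all transcripts). The log2 value of 1.73 ± 0.631 between A and B had an edgeR adjusted p of 0.0759, and it passed in DESeq2 (1.75, adjusted p = 0.039) and without layer B replicate 3.

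The cytoplasmic Cacnb subunits split into 3 that were lower in layer A and 1 that was not. Cacnb4 (ENSMUST00000102761, chromosome 2 from 52428325 to 52558567, minus strand), mutated in a mouse line with ataxia and seizures, was at 31.2, 46.8 and 49.8 normalized CPM in layer A, 119.9, 90.4 and 121.5 in layer B and 111.6, 135.8 and 122.4 in layer C. Layer A lay well below both. The fold changes of -1.37 ± 0.284 (edgeR adjusted p = 0.00425) and -1.53 ± 0.286 (edgeR adjusted p = 0.00491) passed in all 20 alternative fits of each comparison. A share of 16.77% of its 50-base stretches also lies in the overlapping gene A430018G15Rik.

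Cacnb1, the subunit best known from skeletal muscle and also present in brain, was at 2.20, 4.54 and 7.28 normalized CPM in layer A, 17.4, 20 and 9.51 in layer B and 17.5, 11.2 and 15.2 in layer C. Cacnb2, which pairs with L-type channels in heart and brain, was at 9.31, 7.08 and 9.45 in layer A, 16.4, 16.5 and 26.9 in layer B and 20.9, 27.0 and 14.8 in layer C. Both separated layer A from the other layers. Fold changes were -1.72 ± 0.426 (edgeR adjusted p = 0.012) and -1.62 ± 0.426 (edgeR adjusted p = 0.0232) for Cacnb1 and -1.21 ± 0.336 (edgeR adjusted p = 0.0219) and -1.27 ± 0.337 (edgeR adjusted p = 0.0241) for Cacnb2. With single samples left out, Cacnb1 kept its call in 7 and 5 of 9 fits and Cacnb2 in 6 and 4 of 9, each losing it without layer A replicate 1 or without layer A replicate 2.

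Cacnb3, a subunit common with N-type channels, stood apart from its family. It had the highest level per length of the Cacnb genes (16.3 normalized CPM per kb over 9 samples) and was at 57.5, 40.6 and 36.9 normalized CPM in layer A, 37.7, 45.2 and 21.3 in layer B and 52.8, 41.4 and 35.9 in layer C. All layers overlapped. The log2 values were 0.37 ± 0.327 (edgeR adjusted p = 0.496) and 0.05 ± 0.326 (edgeR adjusted p = 0.951). As a share of the summed Cacnb level per kilobase, Cacnb3 took 76.8, 64.3 and 57.8% in layer A, 38.2, 45.8 and 25.5% in layer B and 46.3, 37.8 and 37.9% in layer C, and Cacnb4 took 20.2% ± 6.23 (SD, n = 3), 37.4% ± 8.5 and 36.6% ± 5.24. In layer A Cacnb3 was the main Cacnb transcript by level per length in every sample, whereas Cacnb4 exceeded it in 1 sample of layer B and 2 of layer C.

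**Figure D5:**
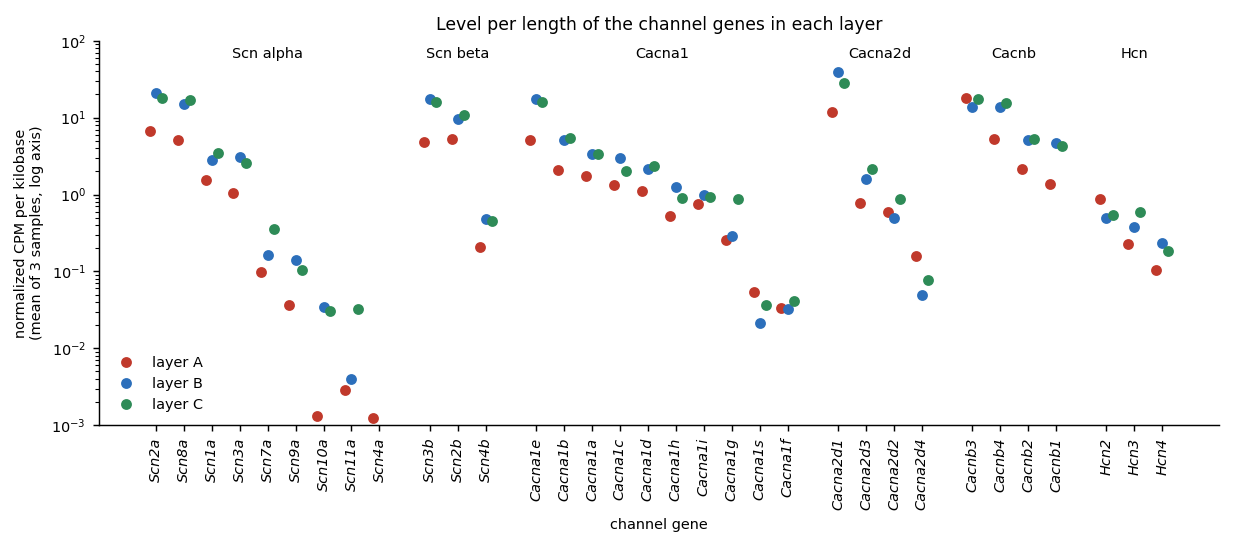
Mean normalized CPM per kilobase of transcript (y axis, log scale) of 33 channel genes in layers A, B and C (3 samples each), by family and in falling order of the mean over all samples. Cacna2d1, Cacnb3 and Scn2a have the highest levels, and the layer A point is the lowest of the 3 for most genes. It is the highest for Cacnb3, Hcn2, Cacna2d4 and Cacna1s and lies between the others for Cacna1f and Cacna2d2. Scn4a is at 0 in layers B and C and has a point in layer A alone.

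Hcn2, an HCN subunit with a strong response to cyclic AMP, had positive fold changes in both comparisons with layer A. It was at 2.54, 3.61 and 2.17 normalized CPM in layer A, 2.16, 1.87 and 0.749 in layer B and 1.30, 1.28 and 2.65 in layer C. Layer A was above B by a narrow margin and overlapped C, and neither value passed (0.79 ± 0.495 and 0.64 ± 0.494, edgeR adjusted p = 0.318 and 0.484). Its share of the summed Hcn level per kilobase was 35.4, 47.4 and 32.6% in layer A, 24.7, 21.4 and 8.81% in layer B and 11.6, 10.3 and 20% in layer C. Hcn3 and Hcn4, the latter known as the sinoatrial pacemaker subunit, were at or below 3.94 and 2.13 normalized CPM in every sample and did not pass, except that Hcn4 passed against B without layer B replicate 3. For Hcn3, 16.75% of its 50-base stretches also lie in the neighbouring gene Pklr.

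Between layers B and C no member passed in edgeR, where 3 of 34 (Cacna1g and Scn7a among them) had an unadjusted p under 0.05 against 4.11% of all transcripts, and where 0 of 56416 transcripts passed. The same 3 members had every layer C sample above every layer B sample, which held for 4.67% of all transcripts, while the reverse held for 0 members and 3.92% of all transcripts. With 1 transcript per gene, 4 of 15174 genes (0.0264%) passed, 0.0132% in each direction. DESeq2 called 124 transcripts and 1 member, Cacna1g (-1.62, adjusted p = 0.0476). The median log2 fold change of the members was -0.09 and that of all transcripts 0.07. Member values ran from -1.61 for Cacna1g to 0.54 for Cacna1c.

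The members that passed differed from the others in features that the choice by name did not use. The 18 that passed in at least 1 comparison had a median transcript length of 8384.5 bases and a median GC content of 46.5%, against 5793 bases and 56.9% for the 16 that did not. Their median level was 3.02 against 0.777 normalized CPM per kb, so that they were also measured with more reads. Under offsets that remove trends with GC content and length in each sample, 18 members passed between A and B and 16 between A and C. Of 56416 transcripts, 10861 and 7528 passed under these offsets. A total of 10 tested members, 4 of the 18 and 6 of the 16, had fewer than 10 counts in at least 1 sample.

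Several transcripts of a gene often gave similar counts. For 20 of the 26 members with several transcripts, another one came within 10% of the first by mean count, and such counts cannot be assigned to an isoform. Beside the 34 members, 106 other transcripts of these genes were tested. Of these 106, 27 passed between A and B and 34 between A and C, all lower in layer A. Over all transcripts, 5.83% and 4.35% passed lower in layer A. Other transcripts with nearly the member's counts are not separate measurements. Other transcripts of a gene did not always pass where its member did. The 6 other tested transcripts of Cacnb1 had mean counts of 123.4 to 293.6 per sample, against 573.2 for the member. Their adjusted p was above 0.05 in both comparisons (edgeR adjusted p from 0.0633 to 0.13). For Cacnb2, no other tested transcript passed between A and B (edgeR adjusted p from 0.0994 to 0.416). Between A and C, ENSMUST00000114719 passed (edgeR adjusted p = 0.0289) and the rest did not. For Cacna1b, ENSMUST00000070864 passed in both comparisons and ENSMUST00000041342 in neither (edgeR adjusted p = 0.0536 and 0.155). For Cacna1g, 11 of its 12 other tested transcripts passed between A and C.

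Partners of these channels and related genes were read from a list of 30 genes, of which 23 were tested. Not all of them encode proteins that bind the channels described here. Between A and B 8 were lower and 1 higher in layer A, and between A and C 7 were lower and 0 higher, with a list median of -0.48 and -0.72. Of all transcripts, 5.83% passed lower and 10.7% higher in A than in B, and 4.35% and 6.98% against C. Medians over all transcripts were -0.12 and -0.01. The smallest p in both comparisons belonged to Cacng3, an AMPA receptor auxiliary protein named for its likeness to a calcium channel subunit (8.03 ± 2.59 normalized CPM (SD, n = 3) in A, 43.5 ± 6.04 in B and 39.7 ± 9.63 in C; log2 -2.43 and -2.29, edgeR adjusted p = 0.000292 and 0.0018). Ank3, the ankyrin that anchors sodium channels at the axon initial segment, came next (41.0 ± 12.4, 110.2 ± 15.8 and 133.2 ± 24.5 normalized CPM; log2 -1.43 and -1.70, edgeR adjusted p = 0.00452 and 0.00373). Cacng4, of the same family as Cacng3 and known from glia as well as neurons, was the member of the list that was higher in A than in B (15.9 ± 6.93 against 5.70 ± 1.05; log2 1.48, edgeR adjusted p = 0.0135).

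Calcium release, extrusion and calmodulin signalling genes passed in both directions. Of 20 tested, 11 were lower and 3 higher in layer A in each comparison, with a median of -1.26 against B and -1.02 against C. Over all transcripts the shares were 5.83% lower and 10.7% higher against B and 4.35% and 6.98% against C, with medians of -0.12 and -0.01. The plasma membrane calcium pumps Atp2b1 (log2 -1.77 and -1.67, edgeR adjusted p = 0.00103 and 0.00356), Atp2b3 (-1.85 and -2.09, edgeR adjusted p = 0.00157 and 0.00244) and Atp2b4 (-1.97 and -2.28, edgeR adjusted p = 0.00108 and 0.00188) were among the lower genes. The 3 higher genes were the inositol trisphosphate receptors Itpr2 (2.84 and 1.81, edgeR adjusted p = 0.000559 and 0.0116) and Itpr3 (3.60 and 3.06, edgeR adjusted p = 0.00306 and 0.011), and the kinase subunit Camk2a (1.87 and 1.41, edgeR adjusted p = 0.0016 and 0.0135), whose mRNA is known to be carried into dendrites. No gene of either list passed between layers B and C, where 0 of 56416 transcripts passed.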

How the data were processed

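RNA from 9 laser-captured samples (layers A, B and C of piriform cortex, 3 each, grouped by their labels) was amplified and sequenced from libraries that do not record strand. The authors deposited raw read counts per Ensembl transcript, 1 table per sample. The submitters' processing notes name bcl2fastq 1.8.4, Bowtie, HTSeq 0.5.3 and mm10; how reads on several transcripts were counted is not given in the sources used here. GENCODE annotation of GRCm38 matched 82807 of 95533 identifiers (86.7%).

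Counts were analysed in R 4.3.3 with edgeR 4.0.16 (TMM, quasi-likelihood F-test on all 9 samples, Benjamini-Hochberg adjustment over the 56416 transcripts that reached 10 counts in 3 or more samples, threshold 0.05), after the fit was tested on simulated data. DESeq2 1.42.0 and mgcv 1.9.3 (offsets for GC content and length) served as alternatives, beside other filters, gene-level counts, fewer samples and equal depth. Members and lists were chosen with earlier results of these data known. Values in every sample are given for members that passed, for the most abundant member of each family per kilobase and for Cacna1s; Scn2b, Cacna1a, Cacna2d4, Hcn2 and Scn11a were added after their values were seen. Genes outside the families come from lists, by the 2 smallest p per direction in either comparison with layer A, and are given in both. Depth was 23104306 to 76471683 counts per sample. Some members are counted in the totals and are not reported individually here.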

Additional observations from a re-analysis of the deposited data

How the results depend on the processing

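Over up to 20 alternative fits per pair of layers, every member that passed kept its direction, and the median fold changes moved by less than the spread between samples. With single samples left out, 9 to 18 members passed between layers A and B, 7 to 19 between A and C, 8 to 17 among the 3 layers and 0 in every case between B and C. Transcripts that passed ranged from 5570 to 11337, 1369 to 9740, 4070 to 11312 and 0 to 17 in the same order. DESeq2 called 17, 17, 1 (Cacna1g) and 17 members in A against B, A against C, B against C and the 3 layers, the 1 replacing 0 in edgeR, and the cause was not tested. Over all 56416 transcripts it called 11679, 8883, 124 and 10752, where edgeR called 9329, 6389, 0 and 8061. A filter of 10 counts in all 9 samples left 24 members to test, of which 12 and 13 passed against layers B and C, and counts thinned to equal depth gave 11 and 15. Of 33423 transcripts under that filter 6928 and 5133 passed, and of 44959 after thinning 8378 and 6193.

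Of 763 values of single members with all samples kept, or all of 1 pair of layers, 14 lost their call, 18 gained one and 6 changed sign, and of 636 with 1 sample left out, 61 lost, 12 gained and 13 changed sign. Changes of sign occurred only in values that did not pass and lay within 1 standard error of 0 after the change. The cause was not tested. Cacna1f turned to -0.16 (DESeq2), -0.048 (no filter) and -0.41 (counts summed by gene) against layer C, and to -0.30 (replicate block) and -0.077 (offsets for GC content and length) against B. Cacnb3 against C turned to -0.002 without a filter. With single samples left out, the values ran from -0.74 to 0.59 for Cacna1f against B and from -0.80 to 1.64 against C, from -0.78 to 0.001 for Cacna1i against B and from -0.72 to 0.067 against C, from -0.16 to 0.22 for Cacnb3 against C, from -0.002 to 0.93 for Cacna2d2 against B and from -0.40 to 0.023 for Cacna1g against B.

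The samples' replicate numbers are shared between layers, but deviations of same-numbered samples correlated at -0.186 to 0.243, with 4 of 9 above 0.1, so the numbers were not taken to pair samples. With the replicate block, 12 members passed between A and B, 17 between A and C, 0 between B and C and 15 among the 3 layers. Of 56416 transcripts, 9184, 6384, 0 and 7903 passed in the same order. Depth limits Scn10a, Scn11a and Scn4a most.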
